A study of Mus musculus with 6 samples.

Results

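The 27 genes described here encode enzymes that build cholesterol, proteins that control the transcription factor SREBP2, and proteins that move cholesterol between membranes. They were listed by name for their known roles and looked up by symbol among the 55414 gene identifiers of the deposited table. Earlier results of these data were known when the list was chosen. All 27 were found, and all 27 were among the 14807 genes with enough counts to be tested. The list is not a complete inventory of the pathway. The cells were AY-mICC, a mouse line used in work on COPI in intrahepatic cholangiocarcinoma, which is bile duct cancer within the liver. The labels give 3 libraries of control cells (shCon, genotype control) and 3 libraries of cells with less Copa (shCopa, genotype Copa knockdown), all grown in the same medium with serum and with no treatment. The names carry the prefix of a short hairpin RNA, and nothing in the labels gives the number of hairpins or clones or tells whether the replicates came from separate cultures. The p-values thus rest on the spread among these 6 libraries alone, which may be technical. Copa encodes a subunit of COPI, the vesicle coat for the return route from Golgi to endoplasmic reticulum (ER).

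Cholesterol is made in the ER from acetyl-CoA through mevalonate, isoprenoid diphosphates, squalene and lanosterol. When ER membranes are poor in cholesterol, the escort protein SCAP carries SREBP2 to the Golgi, where proteases release the part that enters the nucleus and switches on most genes of the pathway. When sterol is plentiful, INSIG proteins hold SCAP in the ER. SCAP itself cycles between Golgi and ER, so the pathway depends on traffic between these compartments. Cells also take up cholesterol in lipoproteins, and NPC2 and NPC1 hand it out of the lysosome.

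Levels are given as CPM, counts scaled to a common library size. The libraries held 19634938 to 24546204 estimated counts. The targeted gene, Copa, had 420, 517 and 527 CPM in shCon against 186, 182 and 187 CPM in shCopa (37.9% of control). Library shCon 1 stood apart from shCon 2 and shCon 3: it correlated with them at r = 0.9734 and 0.9719 across genes, against 0.9898 between those 2 and 0.9888 to 0.9907 within shCopa. Of the 27 cholesterol genes, 13 (48.1%) had their highest level of all 6 libraries in shCon 1 and 3 (11.1%) their lowest, against 30.8% and 30.2% of all tested genes. Of 8 bile duct markers, Epcam was at 0.177 to 0.79 CPM in every library and the other 7 were tested, with a summed level of 5094 to 6089 CPM in shCon and 4020 to 4237 CPM in shCopa. Among markers of other cells, Cyp7a1 was at 0 in all 6 libraries. The summed level of 6 hepatocyte markers was 8.37 to 13.3 CPM in shCon and 22.9 to 24.6 CPM in shCopa. That of 5 immune markers was 12.9 to 14.3 against 15.1 to 16.5 CPM, that of 4 endothelial markers 0.0822 to 0.232 against 1.55 to 3.59 CPM, and that of 5 fibroblast markers 184 to 223 against 168 to 182 CPM. Single markers differed from these sums. Ptprc rose from 0 to 0.0429 CPM in shCon to 0.930 to 1.26 CPM in shCopa, while Cd68, most of the immune sum, did not pass. The keratin gene Krt7 fell to 36.9% of control while Krt19 did not pass. The hepatocyte sum was mostly Alb, which rose (mean 9.90 to 22.7 CPM), while Ttr did not pass. Most of the endothelial sum was Kdr, which rose (mean 0.0745 to 1.87 CPM). The fibroblast sum was mostly Dcn, which did not pass (mean 202 to 170 CPM). In that list Pdgfrb fell to 31.6% of control, while Col1a1 did not pass but was higher in every shCopa library. The part of these shifts in the results was not tested, and in bulk RNA fewer cells of a kind and less RNA per cell cannot be told apart.

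The cholesterol genes did not move as a block. A gene is said to rise or fall only where it passed an adjusted p of 0.05 in edgeR's quasi-likelihood test over all 14807 genes. By that measure 5 of the 27 rose (18.5%) and 6 fell (22.2%), while 16 did not pass. Over all tested genes, 18.2% rose and 18.4% fell, so the share of members that rose was near the background and the share that fell slightly above it. For 5 members every shCopa library lay above every control (18.5%, against 27.2% of all tested genes), and for 9 every one lay below (33.3%, against 26.9%). The median log2 fold change of the 27, shCopa minus shCon, was -0.04, beside -0.01 over all tested genes. The summed level of all 27 was 1788 to 1966 CPM in shCon and 1768 to 1838 CPM in shCopa, and the ranges overlapped. That of the 20 synthesis enzymes was 1090 to 1170 and 1147 to 1175 CPM. Without shCon 1, 10 members rose (37.0%) and 8 fell (29.6%), and the shares of all genes grew too, to 28.3% and 27%. The members that rose and fell were 4 and 4 without shCon 2 (14.5% and 15.4% of all genes), 2 and 6 without shCon 3 (15.5% and 16.6%), 2 and 3 without shCopa 1 (12.7% and 11.8%) or without shCopa 2 (11.9% and 11.6%), and 3 and 3 without shCopa 3 (11.7% and 11.6%).

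**Figure D1:**
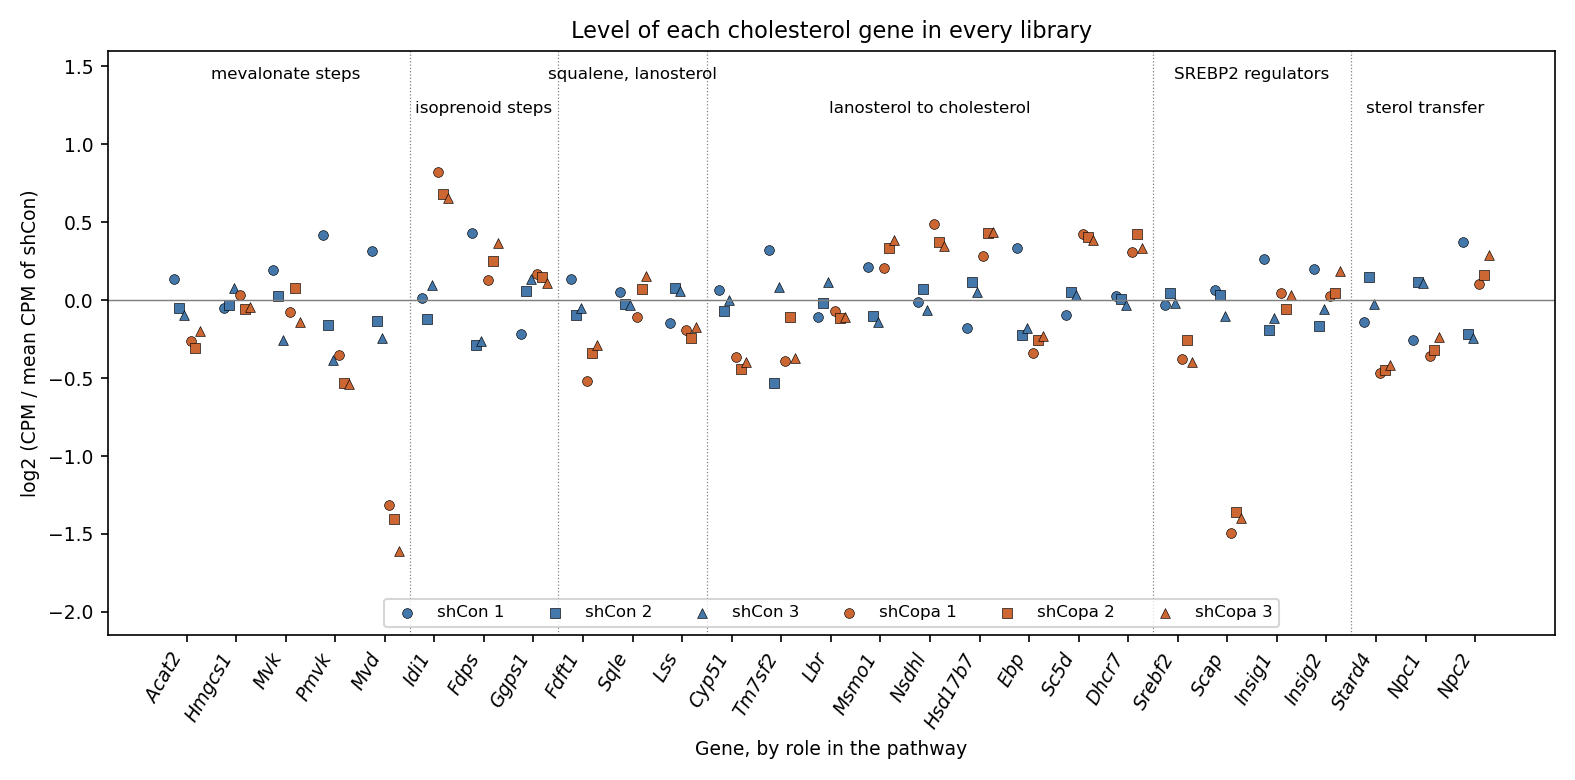
Level of each of the 27 genes in the 6 libraries, as log2 of CPM over the mean CPM of shCon (vertical axis), with genes grouped by role (horizontal axis); each point is 1 library, blue for shCon and orange for shCopa. Mvd and Scap lie furthest below the control level in all 3 shCopa libraries and Idi1 furthest above it, and for 13 genes shCon 1 (blue circle) is the highest of the 6 libraries.

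Scap and Mvd fell furthest, each to less than 2 in 5 of the control level, and Idi1 rose furthest. Scap (ENSMUSG00000032485), the escort of SREBP2, was at 86.9, 85.0 and 77.5 CPM in shCon, against 29.5, 32.5 and 31.6 CPM in shCopa. All shCopa libraries lay far below all controls, and shCon 1 was near its group. The fitted level was 37.5% of control, a log2 fold change of -1.41 ± 0.09 (SE, n = 3 each; edgeR adjusted p = 8.05e-05). Mvd (ENSMUSG00000006517), the decarboxylase that turns mevalonate diphosphate into the first isoprenoid unit, was at 24.3, 17.8 and 16.6 CPM in shCon, against 7.88, 7.39 and 6.42 CPM in shCopa. The groups did not overlap, and shCon 1 was 1.41 times the mean of the other controls. Its log2 fold change was -1.43 ± 0.18 (37.0% of control; edgeR adjusted p = 0.00098), and -1.249 without shCon 1. Idi1 (ENSMUSG00000058258), the isomerase that acts directly after Mvd, was at 37.9, 34.6 and 40.3 CPM in shCon, against 66.6, 60.4 and 59.2 CPM in shCopa. Every shCopa library was above every control. Its log2 fold change was 0.72 ± 0.10 (1.65-fold; edgeR adjusted p = 0.00139). These 3 calls held in each of the 6 fits that left out 1 library.

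The promoters of these 3 genes are shown because neighbouring steps of 1 pathway moved in opposite directions, with that of Hmgcs1, the gene of HMG-CoA synthase, as a member whose level hardly differed. The sequences come from RefSeq on build GRCm38.p6, matched by symbol, and cover 150 bases that end at or before the annotated start. Capitals mark the CCAAT box, the site of the factor NF-Y, on either strand (CCAAT or ATTGG), and the core of a sterol regulatory element searched as TCACNCCAC on both strands. The window of Idi1 is chr13:8885456-8885605 (plus strand), that of Mvd chr8:122443423-122443572 (minus strand), that of Scap chr9:110333138-110333287 (plus strand, the first of 2 listed starts) and that of Hmgcs1 chr13:119690171-119690320 (plus strand, ending 30 bases before the start).
Idi1: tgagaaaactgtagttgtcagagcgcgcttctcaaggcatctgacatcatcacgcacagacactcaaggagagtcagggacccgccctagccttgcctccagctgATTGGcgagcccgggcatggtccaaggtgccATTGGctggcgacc
Mvd: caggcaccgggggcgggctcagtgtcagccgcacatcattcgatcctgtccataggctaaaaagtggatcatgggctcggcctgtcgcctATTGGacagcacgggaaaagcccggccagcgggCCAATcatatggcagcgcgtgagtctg
Scap: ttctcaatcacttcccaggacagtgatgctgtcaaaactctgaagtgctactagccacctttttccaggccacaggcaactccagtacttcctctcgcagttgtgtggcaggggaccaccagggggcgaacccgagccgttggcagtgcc
Hmgcs1: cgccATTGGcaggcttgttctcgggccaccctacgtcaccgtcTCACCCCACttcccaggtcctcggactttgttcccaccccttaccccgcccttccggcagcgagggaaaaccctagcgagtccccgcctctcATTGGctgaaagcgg

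Idi1, which rose, and Mvd, which fell, each carry 2 CCAAT boxes in the stretch shown. The Scap stretch has none. In the full windows, from 250 bases before to 50 bases after each start, promoters were found for 22 of the 27 members, in 28 entries. A CCAAT box was present in 20 of these 22 genes, all but Acat2 and Scap, against 43.1% of the 10674 tested genes with an entry. It was present in 5 of 5 members that rose, 3 of 4 that fell and 12 of 13 that did not pass. The GC box GGGCGG was present in 20 of 22 members (67.3% of tested genes). The 3 motifs were each searched on both strands and separately, so matches could overlap. The sterol element core was found in 1 member, Hmgcs1, and in 1.41% of tested genes. Only exact matches to the strings were counted, so an element spelled otherwise or outside the window would be missed. These counts describe letters in a short window and say nothing of binding.

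The first steps, from acetyl-CoA to mevalonate diphosphate, had 5 members. Of these Mvd fell (20%, against 18.4% of all tested genes) and the other 4 did not pass. Hmgcs1 was the most abundant of them at 207, 210 and 226 CPM in shCon and 220, 206 and 208 CPM in shCopa. Its groups overlapped, with a log2 fold change of -0.02 ± 0.08. Acat2, the cytosolic thiolase that joins acetyl units, was at 31.8, 27.99 and 27.2 CPM in shCon and 24.2, 23.5 and 25.2 CPM in shCopa. The groups did not overlap, yet the gene did not pass (-0.25 ± 0.10, edgeR adjusted p = 0.091). The kinase genes Mvk (-0.04 ± 0.15) and Pmvk (-0.47 ± 0.23) had overlapping groups. Pmvk was the less abundant, at 7.94 CPM in shCon 1, 5.32 and 4.56 CPM in the other controls and 4.10 to 4.65 CPM in shCopa, and without shCon 1 its difference was -0.21. Mvk turned from -0.04 to 0.06 without shCon 1. The median of the 5 was -0.25, with all 5 values below 0, although Hmgcs1 and Mvk turned above 0 when libraries were scaled by their totals only and Hmgcs1 also with upper quartile scaling.

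In the isoprenoid steps, Idi1 rose (33.3%, against 18.2% of all tested genes) and Fdps and Ggps1 did not pass, with all 3 log2 fold changes above 0. Fdps, which makes farnesyl diphosphate, stood at 97.2 CPM in shCon 1, at 59.2 and 60.3 CPM in shCon 2 and 3, and at 78.8, 85.9 and 93.3 CPM in shCopa. Only shCon 1 kept the groups from separating: the difference was 0.25 ± 0.20 with it and 0.52, past the threshold, without it. Ggps1, which makes the geranylgeranyl diphosphate used to anchor small GTPases, was at 52.4, 63.4 and 67.0 CPM in shCon and 68.4, 67.6 and 65.8 CPM in shCopa (0.14 ± 0.11). Its groups overlapped through shCon 3.

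Of the 3 genes that lead from farnesyl diphosphate to lanosterol, 1 fell (33.3%, against 18.4% of all tested genes). Fdft1, squalene synthase, the first enzyme committed to sterols, was at 68.8, 58.6 and 60.6 CPM in shCon and 43.8, 49.6 and 51.4 CPM in shCopa. The groups did not overlap, and the log2 fold change was -0.38 ± 0.11 (77.0% of control; edgeR adjusted p = 0.0275), a call lost when shCopa 1, shCopa 2 or shCopa 3 was left out. Sqle, squalene epoxidase, overlapped between the groups, with 88.0 to 93.4 CPM in shCon and 83.4 to 99.98 CPM in shCopa (0.04 ± 0.10). Lss, which closes the ring system of lanosterol, was at 62.1, 72.3 and 71.5 CPM in shCon and 58.0 to 61.0 CPM in shCopa. Its groups did not overlap, but it did not pass (-0.20 ± 0.09, edgeR adjusted p = 0.136). Without shCon 1 it fell, at -0.27.

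The steps from lanosterol to cholesterol held 4 of the 5 members that rose. Nsdhl and Hsd17b7 encode the dehydrogenase and the reductase of the complex that strips methyl groups from the sterol ring. Nsdhl was at 26.9, 28.5 and 25.9 CPM in shCon and 38.1, 35.1 and 34.4 CPM in shCopa, with no overlap (0.40 ± 0.09, 1.32-fold; edgeR adjusted p = 0.013). Hsd17b7 was at 33.7, 41.3 and 39.5 CPM in shCon and 46.4, 51.3 and 51.5 CPM in shCopa, again with no overlap (0.38 ± 0.11, 1.30-fold; edgeR adjusted p = 0.0279). Msmo1, the oxygenase of the same complex, was at 87.3 CPM in shCon 1, 70.4 and 68.4 CPM in the other controls and 87.0, 95.3 and 98.5 CPM in shCopa. It did not pass (0.31 ± 0.12, edgeR adjusted p = 0.0767), and it rose without shCon 1, at 0.43.

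Sc5d and Dhcr7 encode the desaturase and the reductase of the last steps. Sc5d was at 75.7, 84.1 and 83.0 CPM in shCon and 109, 107 and 106 CPM in shCopa. It was higher in every shCopa library (0.41 ± 0.08, 1.32-fold; edgeR adjusted p = 0.00828), and the call held in all 6 fits without 1 library. Dhcr7 varied little within groups, with 26.0, 25.5 and 24.9 CPM in shCon and 31.6, 34.2 and 32.1 CPM in shCopa (0.36 ± 0.09, 1.28-fold; edgeR adjusted p = 0.0177). Its call held only in the fit without shCon 1 among the 6. That of Nsdhl was lost without shCon 3, shCopa 1 or shCopa 2, and that of Hsd17b7 without shCon 3, shCopa 1, shCopa 2 or shCopa 3. All 4 stayed higher in shCopa in each of these fits.

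Cyp51, the demethylase that opens this part of the pathway, went the other way. It was at 116, 105 and 111 CPM in shCon and 85.8, 81.5 and 84.1 CPM in shCopa, with no overlap (-0.40 ± 0.08, 75.7% of control; edgeR adjusted p = 0.00824), and the call was lost only without shCopa 2. The next reaction, a ring reduction, is shared by Tm7sf2 and Lbr, the lamin B receptor of the inner nuclear membrane. Neither passed, with overlapping groups: Tm7sf2, the lowest member per length, was at -0.28 ± 0.24 and Lbr at -0.10 ± 0.10. Ebp, a sterol isomerase, was at 67.7 CPM in shCon 1, 46.1 and 47.6 CPM in the other controls and 42.5 to 45.8 CPM in shCopa. The groups did not overlap, but it did not pass (-0.27 ± 0.16), and the difference was -0.08 without shCon 1. Of the 9 members of these steps, 4 rose (44.4%, against 18.2% of all tested genes), 1 fell (11.1%, against 18.4%) and 4 did not pass, with a median of 0.31. Of the 4 that rose, only Sc5d kept its call in all 6 fits without 1 library.

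**Figure D2:**
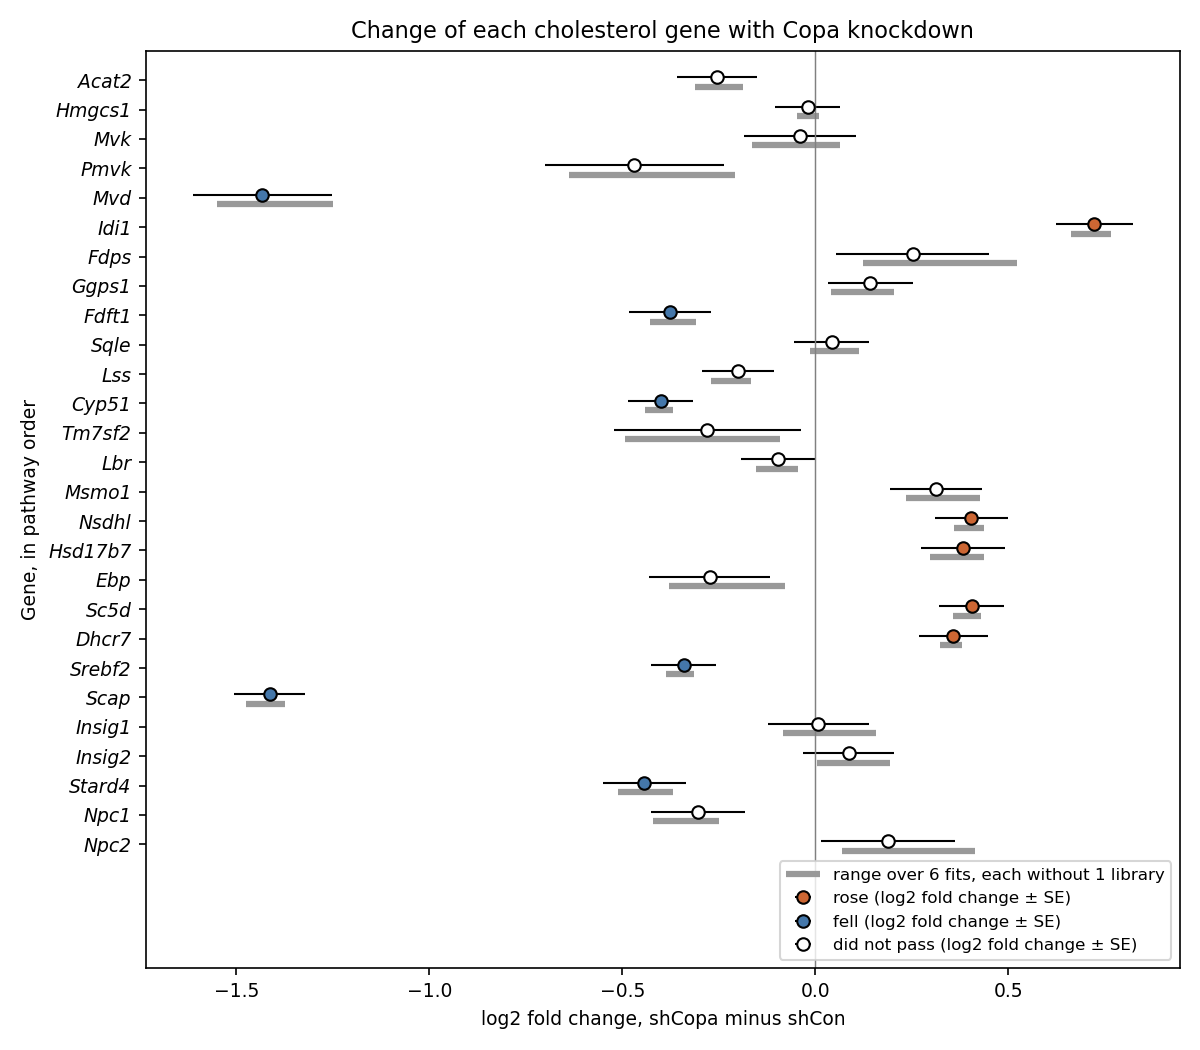
Log2 fold change, shCopa minus shCon (horizontal axis), of each gene in pathway order (vertical axis), with 1 SE (thin line) and the range over 6 fits that each left out 1 library (grey bar). Filled points passed the threshold; Scap at -1.41, Mvd at -1.43 and Idi1 at 0.72 lie apart from the other members, which lie between -0.47 and 0.41.

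Among the genes that control SREBP2, both the factor and its escort fell (50%, against 18.4% of all tested genes) while the 2 retention proteins did not pass. Srebf2, which encodes SREBP2, was at 211, 223 and 213 CPM in shCon and 166, 181 and 164 CPM in shCopa. The groups did not overlap (-0.34 ± 0.09, 78.9% of control; edgeR adjusted p = 0.0173), and the call was lost without shCon 2, shCopa 1 or shCopa 3. Insig1, itself a classic target of SREBP2, was at 89.4 CPM in shCon 1, 65.3 and 68.7 CPM in the other controls and 71.7 to 76.8 CPM in shCopa. Its difference was 0.01 ± 0.13 and took either sign over the fits that left out 1 library, from -0.08 to 0.16. Insig2 was at 113 CPM in shCon 1, 87.9 and 94.8 CPM in the other controls and 100, 102 and 112 CPM in shCopa (0.09 ± 0.12). Without shCon 1, both Insig genes rose, by 0.16 and 0.19.

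Because the fall of Scap was larger than any difference of its partners, the ratios within a library also parted. These ratios were chosen after the values were seen and are given without a test, on the scale of CPM per kilobase of transcript. Insig1 plus Insig2 over Scap was 6.02, 4.70 and 5.52 in shCon and 15.6, 14.0 and 15.8 in shCopa, a mean of 5.41 ± 0.669 against 15.1 ± 0.946 (SD, n = 3). Scap over Srebf2 was 0.415 ± 0.0269 in shCon and 0.198 ± 0.00890 in shCopa. Idi1 over Mvd, neighbouring steps, was 0.905, 1.13 and 1.41 in shCon and 4.90, 4.74 and 5.34 in shCopa. The groups did not overlap in these 3 ratios, nor in Cyp51 over Msmo1 (0.691 to 0.840 in shCon and 0.444 to 0.512 in shCopa). They did overlap in Npc2 over Npc1, which was 8.75 in shCon 1, 4.50 and 4.43 in the other controls and 7.79, 7.93 and 8.15 in shCopa.

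Of the 3 genes that move sterols, Stard4 fell (33.3%, against 18.4% of all tested genes). It encodes a soluble protein that carries cholesterol between membranes and is a known SREBP2 target. It was at 26.1, 31.8 and 28.2 CPM in shCon and 20.7, 21.1 and 21.5 CPM in shCopa, with no overlap (-0.44 ± 0.11, 73.6% of control; edgeR adjusted p = 0.0156). The call was lost without shCon 2, shCopa 1, shCopa 2 or shCopa 3. Npc1, the lysosomal membrane exporter, was at 41.2 CPM in shCon 1, 53.2 and 53.1 CPM in the other controls and 38.3, 39.3 and 41.8 CPM in shCopa (-0.30 ± 0.12, edgeR adjusted p = 0.0881). Npc2, its soluble partner, was at 228 CPM in shCon 1, 151 and 149 CPM in the other controls and 189, 197 and 215 CPM in shCopa (0.19 ± 0.17). Both overlapped between the groups through shCon 1 alone. Without it Npc1 fell (-0.42) and Npc2 rose (0.41).

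Per length, Insig2 was the highest member in both, at 78.8 CPM per kilobase in shCon and 83.7 in shCopa, and Tm7sf2 the lowest, at 3.82 and 3.14. Hmgcs1, Fdps and Npc2 filled the ranks 2 to 4 in both groups, at 63.9, 55.2 and 53.3 CPM per kilobase in shCon and 63.1, 65.7 and 60.7 in shCopa. Over shCon 2 and 3 alone, Srebf2 (47.9) stood above Fdps (45.6) and Npc2 (45.4), so the order of these 3 in the controls rests on shCon 1. Scap went from rank 14 to rank 24 (19.7 to 7.38) and Idi1 from rank 20 to rank 14 (12.4 to 20.5). The order also rests on the median length of annotated transcripts, and which transcripts these cells use was not measured. Without the division by length, Insig2 had a mean of 98.7 CPM in shCon. That was below Srebf2 (216), Hmgcs1 (214) and Npc2 (176). Neighbouring ranks were not tested against each other.

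Members with GC-rich transcripts tended to have lower fold changes. Across the 27 genes Spearman's rho between GC content and log2 fold change was -0.58, and across all tested genes it was -0.20. Genes are not independent replicates and all points share the same 6 libraries, so these are descriptions. Mvd and Scap have the highest GC content of the members, at 59.3% and 59.1%, and Idi1 the lowest, at 41.9%. The median was 45.8% for the 5 members that rose, 54.4% for the 6 that fell and 50.2% for the 16 others. A smooth trend on transcript length and GC content was fitted over the tested genes, leaving out those of low level. It came to -0.24 for Mvd, -0.19 for Scap and 0.13 for Idi1 (shCopa minus shCon, log2). With that trend removed from each library, the 3 genes were at -1.18, -1.22 and 0.59 and kept their calls. Of the other called members, Srebf2 (trend -0.15) went from -0.34 to -0.20 and kept its call. Nsdhl (0.40 to 0.31), Hsd17b7 (0.38 to 0.31), Sc5d (0.41 to 0.29) and Stard4 (-0.44 to -0.41) also had smaller differences. Those of Fdft1 (-0.38 to -0.40), Cyp51 (-0.40 to -0.52) and Dhcr7 (0.36 to 0.40) were larger. In that fit 24.2% of all genes rose and 24.1% fell, more than without the correction. Of the members 6 rose (22.2%) and 9 fell (33.3%): Fdps joined those that rose, Acat2, Lss, Lbr and Npc1 joined those that fell, and Stard4 no longer passed.

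**Figure D3:**
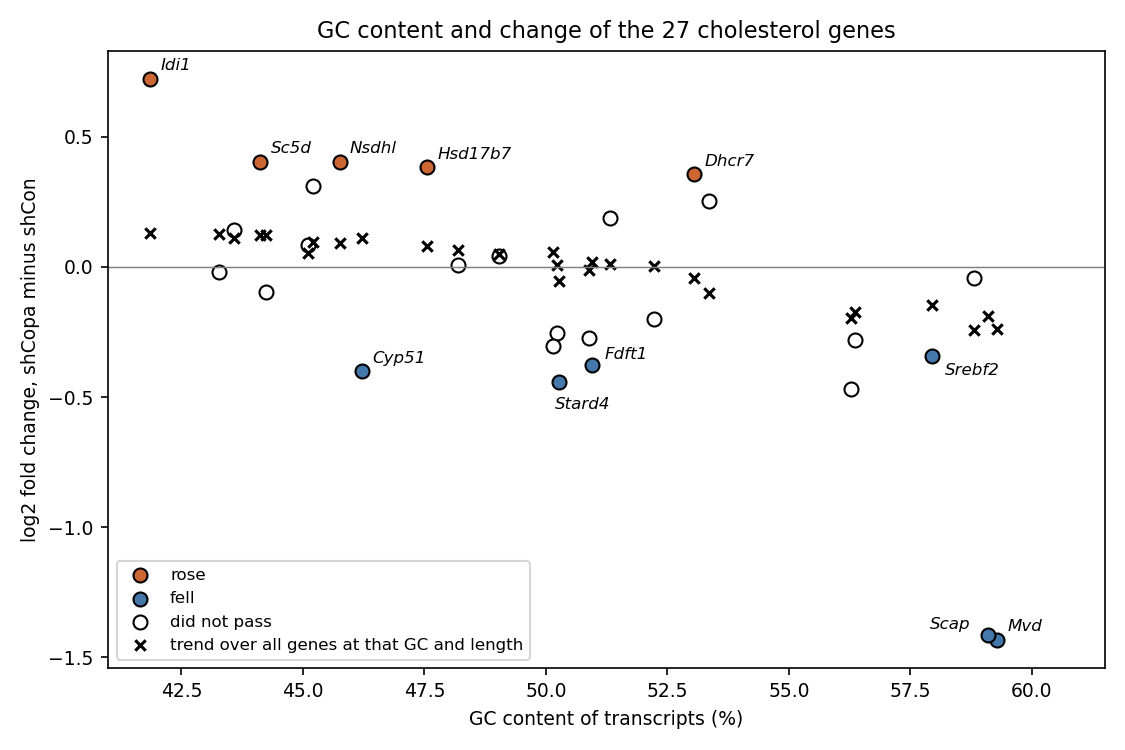
GC content of the transcripts (horizontal axis, percent) and log2 fold change, shCopa minus shCon (vertical axis), of the 27 genes. Circles are genes, filled where they passed. Crosses give the trend, fitted over the tested genes without those of low level, at the same GC content and length. Mvd, Scap and Idi1 lie at the ends of the GC range and far outside the trend, which runs from -0.24 to 0.13 over the members.

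The 6 neighbouring lists of the sterol and lipid pathways were drawn up by function, with earlier results of these data known. Their shares are thus not independent of the data. Counts stand beside the 18.2% of all tested genes that rose and the 18.4% that fell, and no list was tested. Of 9 genes of SREBP proteolysis and sterol-regulated degradation, 2 rose (22.2%), 2 fell (22.2%) and 5 did not pass, near those shares (median -0.25). Of the proteases that cut SREBP2 in the Golgi, Mbtps2 rose (75.9 ± 7.79 to 97.7 ± 3.62 CPM, SD, n = 3; 0.36 ± 0.10 SE), while Mbtps1 did not pass (117 ± 14.0 to 98.8 ± 2.15 CPM; -0.25 ± 0.11). The call of Mbtps2 was lost without shCon 3, shCopa 1, shCopa 2 or shCopa 3, and Mbtps1 fell without shCon 1 (-0.34). Erlin1, an ER membrane protein that binds cholesterol, rose 1.89-fold (0.92 ± 0.10). Rnf145, an ER ubiquitin ligase, fell to 67.4% of control (-0.57 ± 0.08).

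Of 7 tested genes of oxysterols, the sterol sensor LXR and sterol export, 4 fell (57.1%, against 18.4% of all tested genes), none rose and 3 did not pass (median -0.47). Nr1h2, which encodes LXR beta, fell to 66.9% of control (lost without shCopa 3), its partner Rxra to 72.2%, and Cyp7b1, an oxysterol hydroxylase, from 3.91 ± 1.201 to 1.66 ± 0.0242 CPM (SD, n = 3). With the correction for length and GC content, the log2 fold change of Nr1h2 went from -0.58 to -0.25 and that of Rxra from -0.47 to -0.30. That of Cyp7b1 went from -1.23 to -1.34, and all kept their calls. Abca1 (-0.35 ± 0.19) and Mylip (-0.17 ± 0.35), which are among the LXR targets, did not pass. Abca1 fell without shCon 1 (-0.55) and with the correction for length and GC content (-0.52). Mylip was low, at 0.511 to 0.781 CPM in shCon and 0.455 to 0.664 CPM in shCopa, so its value says little. Ch25h, an interferon-induced enzyme whose product, an oxysterol, holds SREBP2 back, was too low to test, at 0.0429 to 0.279 CPM in shCon and 0.0432 to 0.0885 CPM in shCopa.

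Storage and transfer genes held the largest fall among these lists. Soat1, which esterifies cholesterol for storage, was at 72.5, 62.8 and 64.8 CPM in shCon and 14.4, 12.6 and 14.6 CPM in shCopa, 20.8% of control (-2.26 ± 0.11; edgeR adjusted p = 3.44e-05). The sterol transfer proteins Gramd1b and Gramd1a, which bring cholesterol from the plasma membrane to the ER, fell to 38.9% and 73.7%. The call of Gramd1a was lost without shCopa 2 or shCopa 3 and with the correction for length and GC content, where its log2 fold change went from -0.44 to -0.22. The related Gramd1c, named after its value was seen, rose 1.68-fold and was lost without shCopa 2 or shCopa 3. In all, 1 of 12 rose (8.33%, against 18.2% of all tested genes), 4 fell (33.3%, against 18.4%) and 7 did not pass (median -0.10). Of 13 genes of the non-sterol isoprenoid branch, 4 fell (30.8%, against 18.4% of all tested genes), none rose and 9 did not pass (median -0.21). They included Dolk, dolichol kinase (38.8%), Fnta, a prenyltransferase subunit (51.2%), and Dhdds, which makes the dolichol precursor (75.8%, lost without shCon 2, shCon 3, shCopa 1 or shCopa 3). Without shCon 1 the log2 fold change of Dolk went from -1.37 to -1.16 and that of Fnta from -0.96 to -0.70. Both kept their calls.

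Among 11 genes of SREBP1 and fatty acid synthesis, 1 rose (9.09%, against 18.2% of all tested genes), 5 fell (45.5%, against 18.4%) and 5 did not pass (median -0.23). Srebf1, the gene of SREBP1, fell from 84.9 ± 8.96 to 56.4 ± 3.91 CPM (SD, n = 3; -0.59 ± 0.11 SE), Fads2, a desaturase, to 62.9% of control and Elovl6, an elongase, to 58.0%. Scd1, another desaturase, rose 2.26-fold. The lipoprotein receptor list also holds a chaperone. Of its 6 tested genes, 5 passed the test as lower (83.3%, against 18.4% of all tested genes; median -0.50). The sixth did not pass and went the other way, with every shCopa library above every control (0.47 ± 0.18). The 5 that fell included Vldlr (159 ± 17.0 to 102 ± 4.33 CPM) and the chaperone Lrpap1 (85.8 ± 5.52 to 62.7 ± 1.198 CPM). Among them too was Lrp1, an endocytic receptor, at 38.5 CPM in shCon 1, 60.2 and 64.8 CPM in the other controls and 23.2 to 28.7 CPM in shCopa. These 6 lists were not compared with the cholesterol members by a test.

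**Figure D4:**
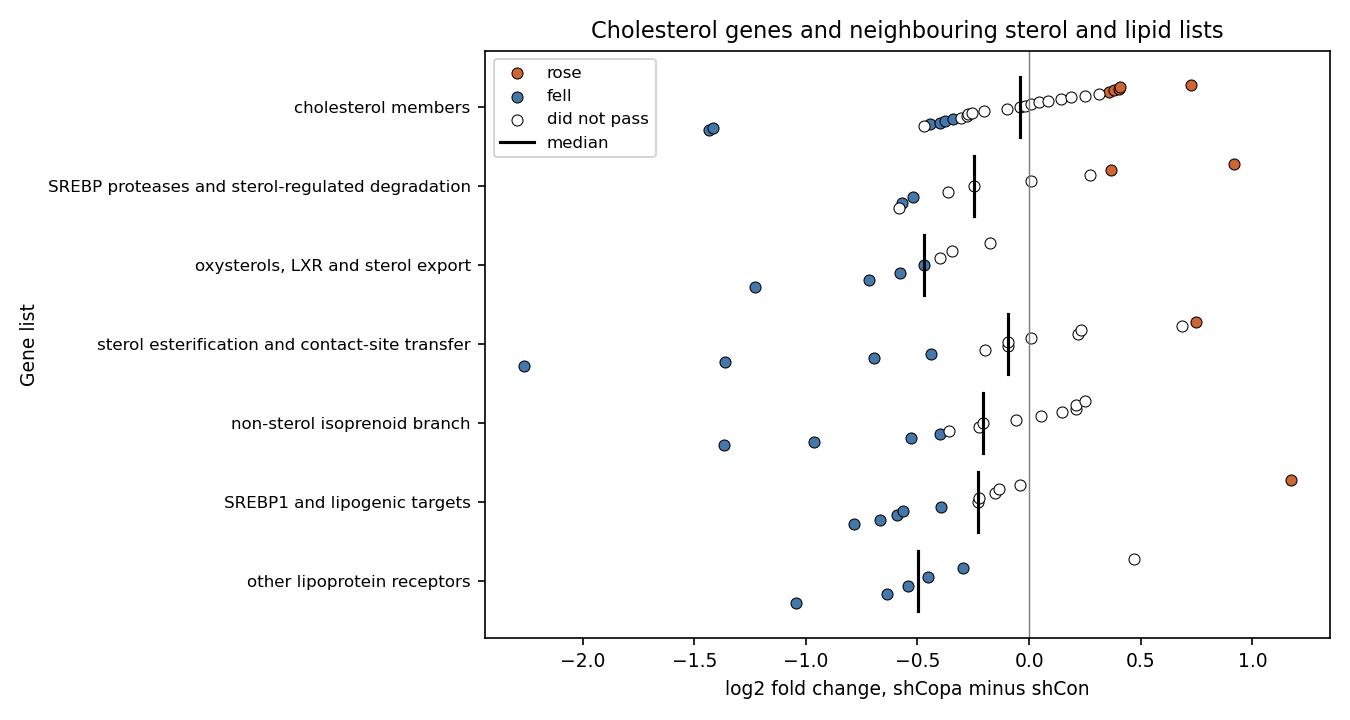
Log2 fold change, shCopa minus shCon (horizontal axis), of each tested gene in the cholesterol list and in 6 neighbouring lists (vertical axis); points are genes, filled where they passed, and black bars are medians. The medians run from -0.50 for lipoprotein receptors to -0.04 for the cholesterol members, and Soat1, at -2.26, is the lowest point.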

How the data were processed

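RNA-seq of 6 libraries was used. Per the labels' protocols, TRIzol RNA was made into mRNA libraries and sequenced as read pairs. The values the authors deposited are estimated counts, 1 row per Ensembl identifier, of which 10.6% to 11.9% in each library are not whole. The submitters' processing notes name the build GRCm39 and the tools featureCounts, HTSeq, DESeq2, Trimmomatic and HISAT2 2.0.5. Not given in the sources used here are the program behind the estimated counts, the annotation and whether counting used strand. Of the 27 members, 16 had a value that was not whole, Acat2, Hmgcs1, Fdps, Fdft1 and Tm7sf2 in every library, so reads shared with similar genes may have been divided.

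Symbols came from GENCODE M21 and matched 52081 of 55414 identifiers; for 67 symbols with several identifiers the highest mean count was used. Estimated counts were rounded. The test was edgeR 4.0.16 in R 4.3.3 (TMM, filterByExpr, robust quasi-likelihood F test, Benjamini-Hochberg over 14807 genes, threshold 0.05), checked on simulated data. That check missed most changes of 1.5-fold, so a gene that did not pass may still differ. SE came from the fold change and its F statistic. Levels per length use the median length of protein-coding transcripts of the GENCODE M21 basic set. Alternatives used limma 3.58.1, DESeq2 1.42.0 and mgcv 1.9.3. The counts allow a floor of 3 counts, 0.123 to 0.152 CPM, counting error only. No pair of libraries agreed within sampling noise (chi-square per degree of freedom 4.34 to 7.89 within shCopa, 6.35 for shCon 2 with shCon 3, 74.3 and 85.9 for pairs with shCon 1).

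Members, lists and tests were chosen with earlier results of these data known. Genes named were all 27 members, Copa, up to 3 called genes of each neighbouring list by adjusted p, and Ch25h, Mylip, Abca1, Srebf1, Mbtps1 and Mbtps2. Members are not a complete pathway, and some genes, 1 of them called in a neighbouring list, are not reported here. No test was made of a list.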

Additional observations from a re-analysis of the deposited data

How the results depend on the processing

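All 11 called members kept their direction in all 17 alternatives. The 0.01 threshold and the 1.5-fold minimum among them changed only the cut-off, so no direction could change there. Scap, Mvd, Idi1 and Sc5d kept their call in all 6 fits without 1 library. Of the 16 others, 4 changed sign somewhere: Hmgcs1 (0.0094 with upper quartile scaling, 0.0317 with library totals only, -0.0473 to 0.0084 without 1 library), Mvk (0.0124 with library totals, 0.207 with length and GC offsets, -0.1641 to 0.0632 without 1 library), Sqle (-0.0076 with the offsets, -0.0148 to 0.1139 without 1 library) and Insig1 (-0.0232 with no low-count filter, -0.0615 with the offsets, -0.084 to 0.1559 without 1 library). Mylip ran from -0.3374 to 0.0231 without 1 library. The cause was not tested. Of all genes, 2691 were higher and 2720 lower; over fits without 1 library these were 1778 to 4317 and 1755 to 4122, and at an adjusted p under 0.01 1590 and 1587. Members that rose numbered 2 to 10 and those that fell 3 to 8 without 1 library (largest without shCon 1). In those fits 11.7% to 28.3% of all genes rose and 11.6% to 27% fell. With no low-count filter 3 members rose (11.1%, against 9.53% of 27462 genes) and 6 fell (22.2%, against 10.1%). At 0.01, 2 rose and 3 fell (7.41% and 11.1%, against 10.7% and 10.7% of all genes). At 1.5-fold or more, 1 rose (Idi1) and 2 fell (Scap and Mvd). These are 3.7% and 7.41%, against 12.6% and 12.8% of all genes. The median stayed between -0.09 and -0.01 without 1 library and was 0.01 with library totals only.

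The replicate numbers were also used as a block. Same-numbered libraries deviated with correlations of -0.16, -0.06 and -0.11, and differently numbered ones with -0.11 to 0.23. None correlated best with its own number. Deviations from a mean of 3 libraries cannot show whether same-numbered libraries were made together. With the replicate block, 3 members rose (Idi1, Sc5d and Hsd17b7) and 3 fell (Scap, Mvd and Cyp51). These are 11.1% each way, beside 13.3% and 13.1% of all genes. The block, the 0.01 threshold and the 1.5-fold minimum each called fewer of all genes than the main fit (18.2% and 18.4%). The block, the 0.01 threshold and the 1.5-fold minimum left these numbers of called genes, in either direction: squalene and lanosterol formation 0, 0 and 0 (main 1), lanosterol to cholesterol 3, 2 and 0 (main 5), SREBP2 regulators 1, 1 and 1 (main 2), sterol transfer 0, 0 and 0 (main 1), SREBP proteolysis and degradation 2, 2 and 1 (main 4), and the isoprenoid branch 2, 2 and 2 (main 4). The 0.01 threshold and the 1.5-fold minimum left 2 and 2 in the LXR list (main 4) and 3 and 2 among lipoprotein receptors (main 5), and 0.01 left 2 in esterification and transfer (main 5). With no low-count filter the lanosterol steps had 3, where 9.53% of all genes rose and 10.1% fell. With the offsets the mevalonate, isoprenoid and squalene steps had 2 each, where 24.2% of all genes rose and 24.1% fell. Without 1 library, 11.7% to 28.3% of all genes rose and 11.6% to 27% fell. Over fits without 1 library the called numbers were 1 to 2 in isoprenoid steps, 0 to 2 in squalene, 1 to 6 in lanosterol steps, 1 to 4 in SREBP2 regulators, 0 to 3 in sterol transfer, 2 to 7 in SREBP proteolysis, 2 to 5 in LXR, 2 to 9 in esterification, 2 to 5 in the isoprenoid branch, 4 to 10 in SREBP1 targets and 3 to 6 in receptors. The least covered member, Tm7sf2, had 634 estimated counts over 6 libraries, and Hmgcs1 28716.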
